A study of Mus musculus with 9 samples.

Results

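Motile cilium genes are taken here as the rows of the mouse gene count table whose symbol begins with Cfap, Dnah, Dnai, Rsph, Drc or Tekt followed by a number. The rule found 70 genes of 21899 in the table, namely 35 Cfap, 15 Dnah, 4 Dnai, 8 Rsph, 3 Drc and 5 Tekt genes. RNA came from the paraventricular thalamus (PVT), a midline nucleus that borders the third ventricle, of wild-type (WT) mice. There were 3 libraries in each of 3 groups, namely mice 7 days after an intraperitoneal injection of lipopolysaccharide (LPS, the endotoxin of Gram-negative bacteria), mice 1 day after LPS, and mice 1 day after phosphate-buffered saline (PBS). The libraries held no PBS group at 7 days, so in LPS 7 days against PBS the treatment and the day cannot be told apart. The labels do not say that replicates are separate animals, so p-values measure the spread between these libraries.

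A motile cilium beats because axonemal dyneins slide neighbouring doublet microtubules against each other. Outer dynein arms drive the beat, inner arms shape it, radial spokes and the central apparatus set which arms are active, and the nexin-dynein regulatory complex links the doublets. In the brain such cilia stand on the ependymal cells that line the ventricles and move cerebrospinal fluid. Epithelial cells of the choroid plexus also carry cilia, and sperm flagella share most of the axoneme.

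The libraries held 13211422 to 17210526 counted reads, and 14837 genes passed the low-count filter and were tested. Summed over Y chromosome genes, the level was 102, 99.6 and 90.9 CPM (counts scaled by library total and by the trimmed mean of M values, TMM) in LPS 7-day libraries. It was 81.7, 85.4 and 82.3 CPM in LPS 1-day libraries, against 0.0588, 0 and 0 CPM in PBS libraries. RNA from the Y chromosome comes from males and the labels give no sex, so each comparison with PBS may also be one of males with females, and sex and treatment cannot be told apart. Genes typical of cerebellum and hindbrain summed to 2821 to 2845 CPM in LPS 7-day libraries, 826 to 853 CPM in LPS 1-day libraries and 914 to 961 CPM in PBS libraries. All 18 tested were called higher at 7 days, with a median log2 fold change of 3.98 against PBS and 3.38 against LPS 1 day. In each comparison of 7 days, a difference in the tissue taken cannot be told apart from the day or the treatment. The part of these differences in the results below was not tested.

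All 70 members had counts, but most were low. In FPKM (fragments scaled by gene length and by library total, the scale used here to compare genes with each other), the mean level over the 9 libraries ran between 0.109 and 25.7 with a median of 0.836. The level was at least 1 FPKM for 33 members and at least 5 FPKM for 9. The highest was Cfap36, followed by Cfap20, a protein of the doublet microtubule wall, at 9.43 FPKM, Cfap97 at 8.87 FPKM and Drc1, the scaffold of the nexin-dynein regulatory complex, at 7.80 FPKM. Tekt5 reached 7.55 FPKM, the highest of the tektins, which form filaments inside the doublets. The heavy chains, which are very long genes, were lower per length, with Dnah1 highest at 1.63 FPKM and Dnah14 lowest at 0.109 FPKM. The filter removed 5 members, Cfap58, Cfap97d1, Cfap299, Rsph6a and Tekt3, and 65 were tested. On chromosome X lay 1 member, Cfap47.

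**Figure D1:**
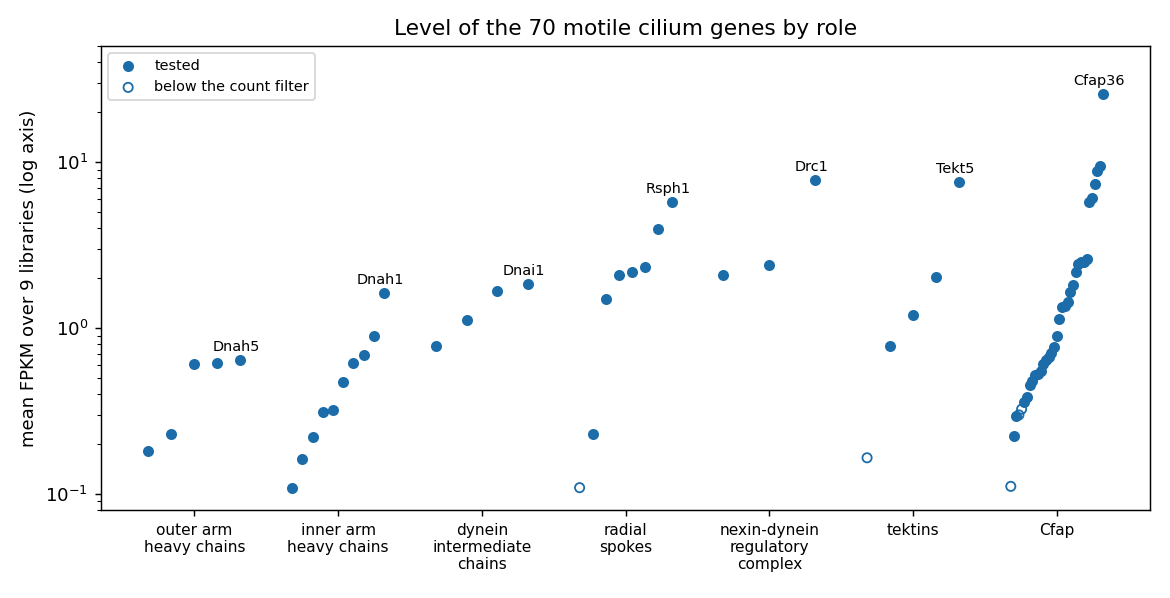
Mean level of each of the 70 members over the 9 libraries, in FPKM on a log axis, by role; filled points passed the low-count filter and open points did not. The highest gene of each role is named, and Cfap36 stands highest at 25.7 FPKM while most heavy chains lie below 1 FPKM.

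The label names these genes as a read of ependymal cilia, and ependymal markers were checked first. Of 15 marker names, 14 were in the table and 13 were tested, and Mia was at 0 in every library. Foxj1, the transcription factor that switches on motile cilium genes, was at 15.0, 14.1 and 14.0 CPM in LPS 7-day libraries and at 10.7, 12.9 and 9.92 CPM in LPS 1-day libraries, against 17.9, 18.5 and 16.6 CPM in PBS libraries. The groups did not overlap, and Foxj1 fell at 7 days (log2 fold change −0.30 ± 0.10 SE, edgeR adjusted p = 0.0172) and at 1 day (−0.66 ± 0.11, edgeR adjusted p = 1.27e-06). Ccdc153, an ependymal gene of unsettled function, averaged 2.99 ± 1.13 CPM in LPS 7-day, 2.52 ± 0.707 CPM in LPS 1-day and 5.28 ± 1.02 CPM in PBS libraries (SD, n = 3 each). Tmem212 averaged 1.15 CPM in LPS 7-day, 1.10 CPM in LPS 1-day and 1.09 CPM in PBS libraries and was not called. Of the 13 tested markers, 4 fell and 1 rose at 7 days and 5 fell and 1 rose at 1 day against PBS. That is 38.5% called at 7 days and 46.2% at 1 day, near the 35.6% and 49.1% of all genes tested in those comparisons. Called lower were 30.8% at 7 days and 38.5% at 1 day, against 18.9% and 24.2% of all genes. The whole list summed to 346 to 375 CPM in LPS 7-day libraries, 268 to 285 CPM in LPS 1-day libraries and 395 to 413 CPM in PBS libraries, and was lowest at 1 day. Ependymal markers were present at low levels, apart from Nnat and Pltp, which other brain cells also express and which made up 81.3% to 86.9% of the summed marker level. Without Nnat and Pltp the markers summed to 47.9 ± 0.402 CPM in LPS 7-day, 51.5 ± 4.95 CPM in LPS 1-day and 58.7 ± 3.08 CPM in PBS libraries. The lowest mean was then at 7 days, but LPS 7-day libraries (47.5 to 48.3 CPM) and LPS 1-day libraries (47.8 to 57.1 CPM) overlapped. Tm4sf1 (7.78, 11.4 and 9.39 CPM in that order of groups) and Hdc (8.71, 11.3 and 8.11 CPM) were highest at 1 day, whereas Foxj1 and Ccdc153 were lowest at 1 day. Which LPS group was lowest thus depended on the genes kept. In bulk tissue, fewer cells of a type and less RNA per cell cannot be told apart.

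Summed over all 70 members, the level was 587, 582 and 582 CPM in LPS 7-day libraries and 653, 645 and 647 CPM in LPS 1-day libraries, against 705, 697 and 703 CPM in PBS libraries. The 3 groups did not overlap, and LPS 7-day libraries were lowest. Cfap36, Cfap97, Cfap20 and Cfap410 made up 29.0% to 32.2% of that sum. Without these 4 genes the sum was 406 ± 2.60 CPM in LPS 7-day libraries, 440 ± 9.21 CPM in LPS 1-day libraries and 499 ± 7.85 CPM in PBS libraries. The order of the groups was the same. Choroid plexus markers summed to 775 to 800 CPM in LPS 7-day libraries, 1128 to 1155 CPM in LPS 1-day libraries and 1068 to 1168 CPM in PBS libraries. Most of that sum came from Enpp2 (384, 579 and 557 CPM in that order of groups) and Ttr (316, 392 and 389 CPM). Tanycyte markers (tanycytes are the mostly non-ciliated cells of the ventricle floor) summed to 242 to 251 CPM in LPS 7-day, 345 to 363 CPM in LPS 1-day and 332 to 337 CPM in PBS libraries. Col25a1 was the largest part of that sum (88.6, 127 and 135 CPM in that order of groups). Rax, of the same list, had 5, 2 and 15 counts per group and was not tested. The sums of both lists were lowest at 7 days, as the members' sum was, while at 1 day the choroid plexus sums overlapped those in PBS libraries. At 7 days against PBS, 16 of 18 choroid plexus genes and 6 of 9 tested tanycyte genes were called lower. These shares were 88.9% and 66.7%, against 18.9% of all genes tested. Genes of sperm and germ cells summed to 4.53 to 5.18 CPM in LPS 7-day libraries, 6.82 to 10.1 CPM in LPS 1-day libraries and 6.41 to 7.70 CPM in PBS libraries, and 3 of the 16 were at 0 throughout. The part of these lists in the members' levels was not tested.

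**Figure D2:**
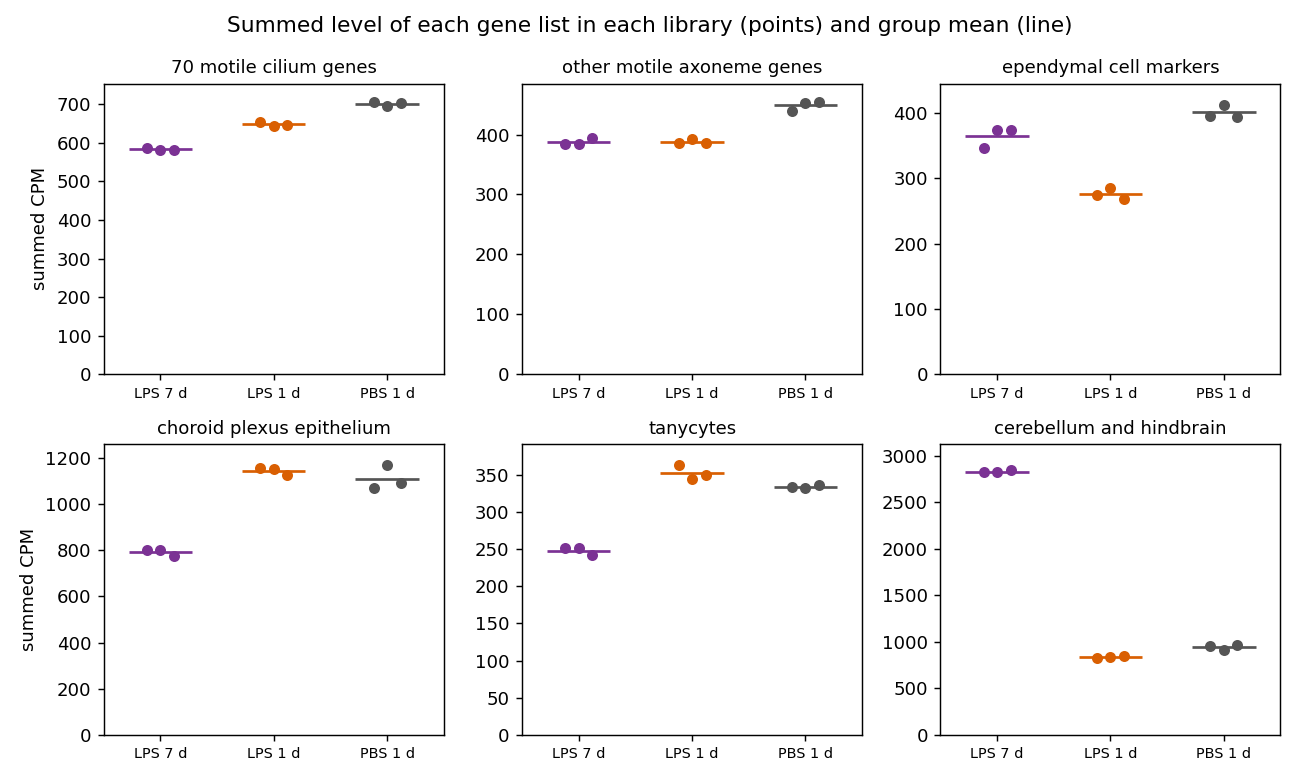
Summed level in CPM of the members and of 5 gene lists in each library, with LPS 7 days, LPS 1 day and PBS 1 day from left to right; points are libraries and lines are group means. The members stand at 582 to 587 CPM in LPS 7-day, 645 to 653 CPM in LPS 1-day and 697 to 705 CPM in PBS libraries, the choroid plexus and tanycyte lists are lowest at 7 days, the ependymal list is lowest at 1 day (without Nnat and Pltp its lowest mean, 47.9 CPM, is at 7 days, with LPS 7-day and LPS 1-day libraries overlapping), and the cerebellum and hindbrain list is highest at 7 days.

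At 7 days after LPS against PBS, 27 of the 65 tested members fell and 4 rose. Among all genes tested in this comparison, 35.6% were called, 18.9% as lower and 16.8% as higher, against 47.7% called and 41.5% lower among the members. The median log2 fold change was −0.39 over the tested members and 0.00 over all genes. In 30 tested members every LPS 7-day library was below every PBS library and in 6 above, while the groups did not overlap in 44.2% of all genes. Those that fell included heavy chains of both dynein arms, all 3 genes of the nexin-dynein regulatory complex and 12 of the 32 tested Cfap genes, while Rsph3b, Dnah11, Rsph1 and Dnah7b rose. A change of more than 1.5-fold was passed by 6 members when that was tested directly (Rsph3b and Dnah11 higher, Dnah8, Drc7, Cfap65 and Cfap54 lower), against 3.63% of all genes.

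At 1 day after LPS against PBS, 17 members fell and 8 rose. Their share of calls, 38.5%, was below the 49.1% of all genes, and the share called lower, 26.2%, was near the 24.2% of all genes. The median log2 fold change was −0.24 over the members and −0.01 over all genes. In 24 tested members every LPS 1-day library was below every PBS library and in 8 above, while the groups did not overlap in 54.5% of all genes. The count of members that fell was 11 without LPS 1-day replicate 2 and also 11 with DESeq2. Only Rsph14 (lower) and Cfap53 (higher) passed a change of more than 1.5-fold, as did 4.36% of all genes.

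At 7 days against 1 day after LPS, 20 members fell and 8 rose. The share called was 43.1%, below the 56.6% of all genes, and the share called lower, 30.8%, was near the 29.1% of all genes. The median log2 fold change was −0.15 over the members and 0.00 over all genes. The 7-day libraries lay wholly below the 1-day libraries in 25 tested members and wholly above in 9, while the groups did not overlap in 60.6% of all genes. The count that rose was 5 without LPS 1-day replicate 3. The comparisons at 7 days and at 1 day against PBS share the PBS libraries, and both comparisons of 7 days share the LPS 7-day libraries.

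**Figure D3:**
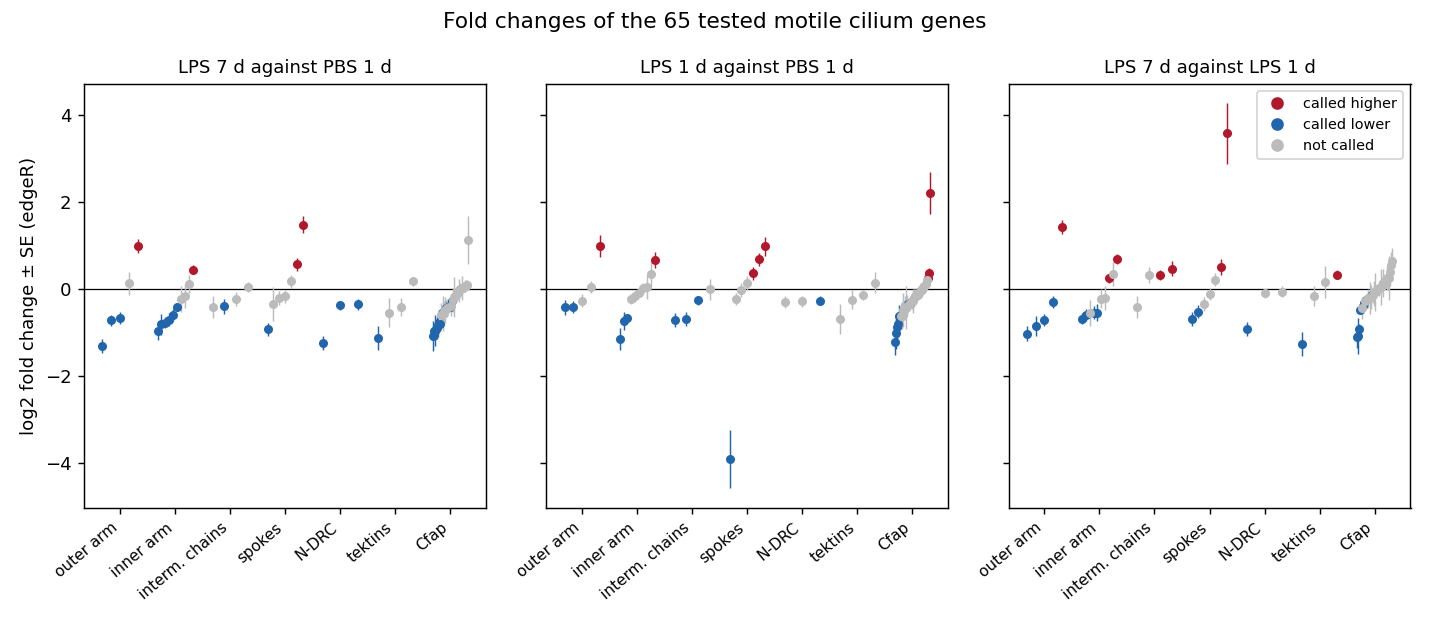
Log2 fold change with its SE (edgeR) of the 65 tested members by role in the 3 comparisons; red points were called higher, blue points lower and grey points neither, at an adjusted p under 0.05. Most called members lie below 0 in LPS 7 days against PBS, where 27 were lower and 4 higher, and Rsph14 is the lowest point at 1 day with −3.92.

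Transcription of motile cilium genes depends on Foxj1 and on RFX factors, which bind the X-box, a repeat around GTTGCC. Of 13 tested regulators, 3 fell and 1 rose at 7 days against PBS, and the share called, 30.8%, was below the 35.6% of all genes. Rfx3 averaged 48.3 ± 6.25 CPM in LPS 7-day, 56.7 ± 2.76 CPM in LPS 1-day and 57.6 ± 3.64 CPM in PBS libraries, a log2 fold change of −0.25 ± 0.07 at 7 days against PBS (edgeR adjusted p = 0.00237). Ccno, which works in basal body multiplication, averaged 0.849 ± 0.263 CPM in LPS 7-day, 2.82 ± 0.461 CPM in LPS 1-day and 1.81 ± 0.405 CPM in PBS libraries and was also lower at 7 days, by −1.08 ± 0.33 (edgeR adjusted p = 0.00806). The regulator that rose was E2f4, at 44.5 ± 2.56 CPM in LPS 7-day, 41.5 ± 1.32 CPM in LPS 1-day and 39.6 ± 1.88 CPM in PBS libraries (edgeR adjusted p = 0.0455 at 7 days against PBS). At 1 day, Foxj1, Gmnc and E2f5 fell, Tfdp1 rose and the other 9 tested did not pass, a share called of 30.8% against 49.1% of all genes.

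Promoters of 58 members were found among the RefSeq promoters of GRCm38.p6. Within the 250 bases before the start site, on either strand, 31.0% of them held GTTGCC, against 11.8% of 27025 genes with a promoter. The looser form GTTNCC, which contains it, was in 67.2% of members and 42.8% of genes, and the forkhead core TGTTTA was in 17.2% of members and 13.5% of genes. Several forms were counted, and GTTGCC is shown since it is the plainest form of the repeat. The matches are letters in a window, not measured binding. The following 80-base stretches show where it lies in members of 5 kinds, with GTTGCC, or GGCAAC where it is read on the other strand, in capitals. They lie at chr1:46066660-46066739 (plus strand) for Dnah7b, chr5:124725005-124725084 (plus) for Dnah10, chr11:114727339-114727418 (plus) for Dnai2, chr5:30281313-30281392 (plus) for Drc1, chr11:72361883-72361962 (minus) for Tekt1 and chr16:90934988-90935067 (minus) for Cfap298.
Dnah7b: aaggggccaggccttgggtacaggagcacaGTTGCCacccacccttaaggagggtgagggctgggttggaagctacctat
Dnah10: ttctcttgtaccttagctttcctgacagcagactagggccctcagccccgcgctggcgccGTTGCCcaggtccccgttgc
Dnai2: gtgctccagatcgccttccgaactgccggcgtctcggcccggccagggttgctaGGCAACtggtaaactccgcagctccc
Drc1: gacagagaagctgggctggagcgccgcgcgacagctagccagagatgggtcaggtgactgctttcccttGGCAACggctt
Tekt1: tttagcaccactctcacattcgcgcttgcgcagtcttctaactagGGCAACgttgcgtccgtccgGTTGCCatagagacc
Cfap298: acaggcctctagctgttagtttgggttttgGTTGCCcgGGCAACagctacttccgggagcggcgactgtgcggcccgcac
Tekt1 and Cfap298 each hold the letters on both strands. In the Drc1 promoter they end 5 bases before the start site. These 6 genes did not move together, since at 7 days against PBS Dnah7b rose, Dnah10 and Drc1 fell, and Dnai2, Tekt1 and Cfap298 did not pass. Among all genes tested, 18.9% were called lower at 7 days against PBS. Of the tested members whose window held GTTGCC, 4 of 17 fell at 7 days and their median log2 fold change was −0.17. Of those without it 19 of 37 fell, with a median of −0.44. The looser form GTTNCC did not show that order. With it 16 of 36 fell, at a median of −0.42, and without it 7 of 18 fell, at a median of −0.36. No test was made of these differences.

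The outer arm heavy chains are the motors of the outer dynein arm, and 3 of 5 fell and 1 rose at 7 days against PBS. Dnah8, a heavy chain best known from sperm (chr17:30843328-31096339, GRCm39), was at 3.92, 3.21 and 2.90 CPM in LPS 7-day libraries and at 7.01, 7.85 and 5.84 CPM in LPS 1-day libraries, against 8.70, 8.16 and 8.18 CPM in PBS libraries. Every LPS 7-day library was below every other library, with a log2 fold change of −1.32 ± 0.17 SE at 7 days against PBS (edgeR adjusted p = 3.71e-09) and −1.04 ± 0.17 at 7 days against 1 day (edgeR adjusted p = 9.39e-07). Glo1, which overlaps Dnah8 on the opposite strand over 2518 bases, averaged 63.4 CPM in LPS 7-day, 83.7 CPM in LPS 1-day and 118 CPM in PBS libraries. Whether the counting used strand is not given in the sources used here, and the part of Glo1 in the Dnah8 counts was not tested. Dnah9, found in the distal part of human airway cilia, was at 7.42, 8.27 and 5.03 CPM in LPS 7-day libraries and at 11.8, 12.1 and 10.2 CPM in LPS 1-day libraries, against 12.5, 10.7 and 9.75 CPM in PBS libraries. It was lower at 7 days by −0.67 ± 0.14 (edgeR adjusted p = 0.000118), while LPS 1-day and PBS libraries overlapped. Dnah5, whose loss causes primary ciliary dyskinesia and hydrocephalus in mice, was at 8.21, 6.73 and 8.16 CPM in LPS 7-day libraries and at 10.1, 8.47 and 10.2 CPM in LPS 1-day libraries, against 10.8, 13.0 and 14.9 CPM in PBS libraries. It fell against PBS at 7 days (−0.73 ± 0.13, edgeR adjusted p = 7.91e-06) and at 1 day (−0.42 ± 0.13, edgeR adjusted p = 0.00571). The call at 1 day was lost without PBS replicate 3 or LPS 1-day replicate 2, with an adjusted p of up to 0.0798.

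Dnah11, an outer arm heavy chain needed for left-right patterning (chr12:117841717-118162778, GRCm39), went the other way at 7 days. It was at 12.0, 16.0 and 13.8 CPM in LPS 7-day libraries and at 7.55, 3.43 and 5.05 CPM in LPS 1-day libraries, against 7.11, 6.45 and 7.63 CPM in PBS libraries. Every LPS 7-day library was above every other library, whereas LPS 1-day and PBS libraries overlapped. The log2 fold change was 0.98 ± 0.15 at 7 days against PBS (edgeR adjusted p = 3.33e-07) and 1.41 ± 0.16 at 7 days against 1 day (edgeR adjusted p = 7.94e-11). At 1 day against PBS it was −0.43 ± 0.17 (edgeR adjusted p = 0.0368), a call that was lost with DESeq2 and without PBS replicate 1 or 3 or LPS 1-day replicate 2 or 3, with an adjusted p of up to 0.406. Genes of cerebellum and hindbrain were also highest at 7 days, with all 18 tested higher, and their part in the Dnah11 level was not tested. Dnah17, a heavy chain best known from sperm, averaged 2.36 ± 0.775 CPM in LPS 7-day, 4.25 ± 1.08 CPM in LPS 1-day and 2.16 ± 0.544 CPM in PBS libraries. It rose at 1 day by 0.98 ± 0.25 (edgeR adjusted p = 0.000981) and was not called at 7 days against PBS.

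Among the 10 inner arm heavy chains, 6 fell and 1 rose at 7 days against PBS, and 3 fell and 1 rose at 1 day. Dnah1, the most abundant of them, was at 21.4, 19.6 and 18.9 CPM in LPS 7-day libraries and at 19.9, 15.5 and 15.8 CPM in LPS 1-day libraries, against 28.2, 25.7 and 26.7 CPM in PBS libraries. All LPS libraries were below all PBS libraries, and the log2 fold change was −0.43 ± 0.09 at 7 days (edgeR adjusted p = 0.000116) and −0.67 ± 0.09 at 1 day (edgeR adjusted p = 4.22e-08). Dnah3 was at 2.51, 2.78 and 2.72 CPM in LPS 7-day libraries and at 0.925, 1.93 and 3.29 CPM in LPS 1-day libraries, against 4.47, 5.44 and 4.29 CPM in PBS libraries. Its 1-day libraries were the most spread, and it fell at 7 days (−0.82 ± 0.24, edgeR adjusted p = 0.00448) and at 1 day (−1.16 ± 0.25, edgeR adjusted p = 0.000115). Lyrm1 overlaps Dnah3 on the opposite strand over 34293 bases and averaged 6.88 CPM in LPS 7-day, 6.17 CPM in LPS 1-day and 8.19 CPM in PBS libraries, and its part in the Dnah3 counts was not tested. Dnah12 also fell at both times, by −0.97 ± 0.21 at 7 days and −0.74 ± 0.20 at 1 day.

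Dnah2, Dnah6 and Dnah10 were lower at 7 days against both other groups, and Dnah14 and Dnah7c were called in no comparison. Dnah6 was at 8.15, 8.64 and 7.81 CPM in LPS 7-day libraries and at 13.5, 11.4 and 14.9 CPM in LPS 1-day libraries, against 13.0, 14.0 and 15.2 CPM in PBS libraries. Its LPS 1-day and PBS libraries overlapped, while its 7-day libraries lay below both, with a log2 fold change of −0.78 ± 0.12 at 7 days against PBS (edgeR adjusted p = 4.24e-07). Dnah2 and Dnah10, the pair of heavy chains of inner arm f, showed −0.61 ± 0.14 and −0.71 ± 0.14 at 7 days against PBS (edgeR adjusted p = 0.000374 and 4.88e-05) and were not called at 1 day, at 0.01 and −0.16. Dnah7b rose instead, with 14.6, 18.1 and 19.8 CPM in LPS 7-day libraries and 11.6, 9.78 and 11.4 CPM in LPS 1-day libraries, against 12.1, 13.5 and 13.1 CPM in PBS libraries. The 7-day libraries were above all others, by 0.44 ± 0.11 against PBS (edgeR adjusted p = 0.00102). Dnah7a, Dnah7b and Dnah7c are near-identical copies among which reads may be split, so their single values are uncertain. Summed over the 3 copies the level was 23.0 ± 2.82 CPM in LPS 7-day, 18.4 ± 0.331 CPM in LPS 1-day and 18.4 ± 1.62 CPM in PBS libraries.

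Of the 4 dynein intermediate chains, which anchor the arms, 1 fell at 7 days and 3 fell at 1 day against PBS. The share called was 25.0% and 75.0%, against 35.6% and 49.1% of all genes. All these calls were lower, where 18.9% and 24.2% of all genes were called lower. Dnai1, an outer arm chain, was at 4.78, 5.06 and 4.73 CPM in LPS 7-day libraries and at 4.62, 4.05 and 3.16 CPM in LPS 1-day libraries, against 6.82, 5.82 and 6.68 CPM in PBS libraries. Dnai2, its partner, was at 5.03, 4.81 and 5.80 CPM in LPS 7-day libraries and at 3.62, 4.24 and 3.53 CPM in LPS 1-day libraries, against 6.05, 6.64 and 5.79 CPM in PBS libraries. In LPS 1-day libraries both were below every PBS library, by −0.72 ± 0.17 for Dnai1 and −0.70 ± 0.17 for Dnai2 (edgeR adjusted p = 0.000564 and 0.000765). At 7 days against PBS, Dnai2 was not called (−0.24 ± 0.16), and Dnai1 was called at an edgeR adjusted p of 0.0498 (−0.41 ± 0.17), a call lost with DESeq2, with each other scaling and filter run, with a replicate block, and in 6 of the 9 fits that left out a library: PBS replicate 1 or 3, LPS 1-day replicate 2 or any LPS 7-day library (adjusted p of up to 0.151). Dnai4, an inner arm chain, fell at 1 day by −0.27 ± 0.11 (edgeR adjusted p = 0.0414), which was lost with DESeq2, with no filter on low counts and without LPS 1-day replicate 1 or 3 or any PBS library (adjusted p of up to 0.132). Dnai3, also of the inner arm, was not called in any comparison.

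All 3 genes of the nexin-dynein regulatory complex fell at 7 days against PBS, where 18.9% of all genes were called lower. Drc7 (chr8:95781731-95804769, GRCm39) was at 4.90, 3.46 and 3.96 CPM in LPS 7-day libraries and at 7.55, 6.92 and 8.89 CPM in LPS 1-day libraries, against 10.5, 10.3 and 8.25 CPM in PBS libraries. The 7-day libraries were below all others, by −1.24 ± 0.16 against PBS (edgeR adjusted p = 4.64e-09) and −0.92 ± 0.16 against LPS 1 day (edgeR adjusted p = 3.54e-06). Drc1, whose promoter is printed above, was at 18.4, 18.5 and 18.8 CPM in LPS 7-day libraries and at 24.5, 16.6 and 19.3 CPM in LPS 1-day libraries, against 24.9, 25.1 and 22.6 CPM in PBS libraries. The 7-day libraries lay close together and below PBS (−0.38 ± 0.10, edgeR adjusted p = 0.00123), and 1 LPS 1-day library lay among the PBS values. Its call at 1 day, −0.28 ± 0.10 (edgeR adjusted p = 0.0159), was lost with DESeq2 and without PBS replicate 2 or LPS 1-day replicate 2 or 3, with an adjusted p of up to 0.223. Drc3 fell at 7 days by −0.36 ± 0.13 (edgeR adjusted p = 0.022), which was lost with DESeq2 and without PBS replicate 1 or 3 or LPS 7-day replicate 3 (adjusted p of up to 0.103).

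Radial spoke genes split by direction. Of 7 tested, 2 rose and 1 fell at 7 days against PBS, and 3 rose and 1 fell at 1 day. The share called was 42.9% and 57.1%, against 35.6% and 49.1% of all genes. Rsph1, a protein of the spoke head, was at 7.78, 7.96 and 9.94 CPM in LPS 7-day libraries and at 7.55, 9.53 and 10.7 CPM in LPS 1-day libraries, against 5.64, 6.52 and 5.25 CPM in PBS libraries. All LPS libraries were above all PBS libraries, by 0.56 ± 0.15 at 7 days (edgeR adjusted p = 0.00229) and 0.68 ± 0.15 at 1 day (edgeR adjusted p = 0.000158). Rsph4a, another head protein, went the other way at 7 days, with 6.50, 5.43 and 3.96 CPM in LPS 7-day libraries and 8.63, 7.60 and 9.62 CPM in LPS 1-day libraries, against 9.64, 11.2 and 9.41 CPM in PBS libraries. It was lower by −0.93 ± 0.15 at 7 days against PBS (edgeR adjusted p = 1.27e-06), and LPS 1-day and PBS libraries overlapped. Rsph9, also of the spoke head, was not called in any comparison (−0.21 ± 0.16 at 7 days and 0.14 ± 0.16 at 1 day against PBS).

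Rsph3b, a stalk protein (chr17:7171812-7216081, GRCm39), showed the highest rise among the members at 7 days against PBS. It was at 6.07, 6.29 and 7.81 CPM in LPS 7-day libraries and at 5.86, 4.30 and 4.26 CPM in LPS 1-day libraries, against 1.94, 2.59 and 2.79 CPM in PBS libraries. The groups did not overlap, and the log2 fold change was 1.47 ± 0.19 at 7 days (edgeR adjusted p = 1.35e-08) and 0.97 ± 0.21 at 1 day (edgeR adjusted p = 0.000111), both against PBS. Rsph3a is a near-identical copy on the same chromosome and was not called, at 6.82 ± 0.359 CPM in LPS 7-day, 5.94 ± 0.684 CPM in LPS 1-day and 6.09 ± 0.489 CPM in PBS libraries. Reads may be split between the copies, and their sum was 13.5 ± 0.741 CPM in LPS 7-day, 10.7 ± 0.841 CPM in LPS 1-day and 8.53 ± 0.934 CPM in PBS libraries, without overlap between groups.

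Rsph14, a radial spoke protein (chr10:74793309-74868418, GRCm39), had 19, 13 and 11 counts in LPS 7-day libraries and 1 count in each LPS 1-day library, against 19, 20 and 14 counts in PBS libraries. It was nearly undetected at 1 day, and LPS 7-day and PBS libraries overlapped. The ratio of its depth-scaled counts was 0.0591 at 1 day against PBS (95% counting interval 0.0118 to 0.182) and 13.2 at 7 days against 1 day (4.22 to 66.4), intervals that cover counting error only. Both calls passed edgeR (adjusted p = 2.6e-06 and 1.98e-05) and were kept without any single library. Gnaz, which overlaps it on the opposite strand over 49731 bases, averaged 81.7 CPM in LPS 7-day, 106 CPM in LPS 1-day and 106 CPM in PBS libraries, and its part in the Rsph14 counts was not tested.

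**Figure D4:**
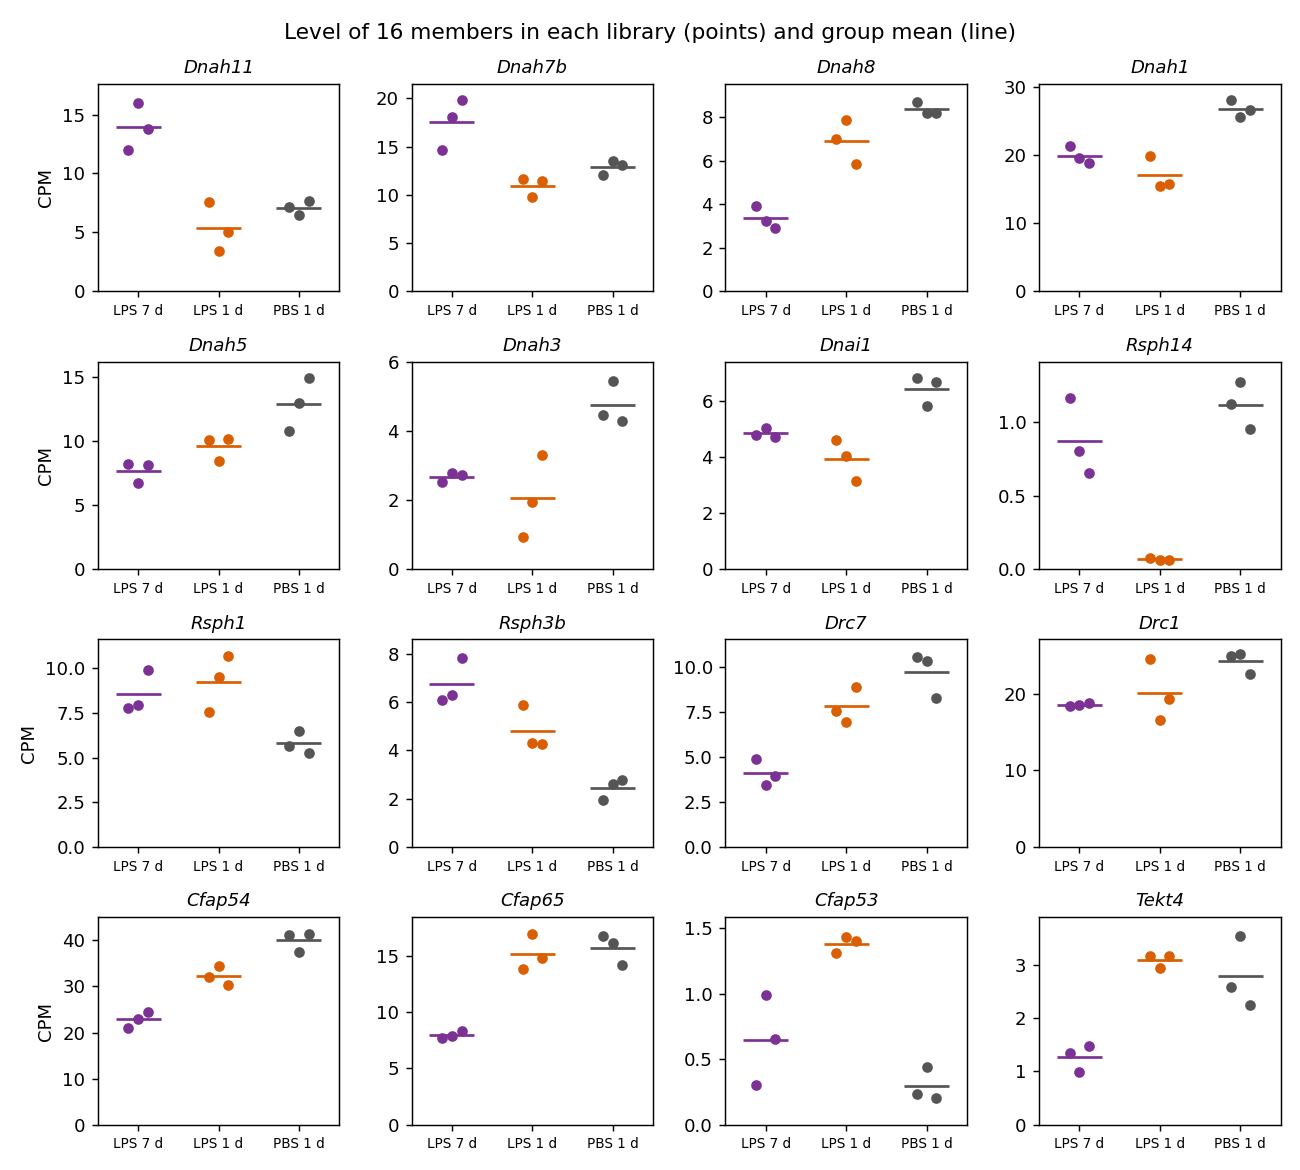
Level in CPM of 16 members in each library, with LPS 7 days, LPS 1 day and PBS 1 day from left to right; points are libraries, lines are group means and each axis starts at 0. Dnah8, Drc7, Cfap65 and Tekt4 were lowest at 7 days, Dnah1 and Dnai1 were below PBS in both LPS groups, Rsph14 was lowest at 1 day, and Dnah11 and Dnah7b were high at 7 days.

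The Cfap genes (cilia and flagella associated proteins) act at several places in the axoneme. Of 32 tested, 12 fell at 7 days against PBS, and 7 fell and 3 rose at 1 day. The share called was 37.5% at 7 days, near the 35.6% of all genes, and 31.2% at 1 day, below the 49.1% of all genes. All calls at 7 days were lower, so 37.5% were called lower, against 18.9% of all genes. At 1 day 21.9% were called lower, against 24.2% of all genes. In the central apparatus, 4 of 8 fell at 7 days. Cfap54, a large protein of a central pair projection whose loss gives hydrocephalus in mice, was at 21.0, 23.0 and 24.5 CPM in LPS 7-day libraries and at 32.0, 34.5 and 30.4 CPM in LPS 1-day libraries, against 41.1, 37.5 and 41.4 CPM in PBS libraries. The groups did not overlap, with the lowest levels at 7 days (−0.81 ± 0.08 against PBS, edgeR adjusted p = 1.28e-12) and a smaller fall at 1 day (−0.31 ± 0.08, edgeR adjusted p = 0.000616). Cfap65 (chr1:74941230-74974758, GRCm39) was at 7.66, 7.90 and 8.34 CPM in LPS 7-day libraries and at 13.8, 16.9 and 14.8 CPM in LPS 1-day libraries, against 16.7, 16.1 and 14.2 CPM in PBS libraries. It was lower at 7 days (−0.98 ± 0.12 against PBS, edgeR adjusted p = 6.83e-10), while LPS 1-day and PBS libraries overlapped, and Cfap70 was also lower at 7 days (−0.90 ± 0.25, edgeR adjusted p = 0.00343). Cfap46, which sits beside Cfap54, fell by 0.29 on the log2 scale at 7 days.

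Among proteins of the doublet wall and lumen, Cfap52 and Cfap77 fell and 5 did not pass at 7 days against PBS. That is 28.6% called lower, against 18.9% of all genes. Cfap52 was at 1.78, 0.555 and 0.769 CPM in LPS 7-day libraries and at 1.39, 1.18 and 1.03 CPM in LPS 1-day libraries, against 2.23, 2.21 and 2.18 CPM in PBS libraries. All LPS libraries of Cfap52 were below the PBS libraries, by −1.09 ± 0.34 at 7 days (edgeR adjusted p = 0.00806), lost without LPS 7-day replicate 2 at an adjusted p of 0.0794. Its fall at 1 day, −0.89 ± 0.33 (edgeR adjusted p = 0.0242), was lost with DESeq2 and without PBS replicate 1 or 2 or LPS 1-day replicate 2 or 3, with an adjusted p of up to 0.088. The call of Cfap77 at 7 days was lost with DESeq2, with no filter on low counts and without PBS replicate 1 or 3 or any LPS 7-day library (adjusted p of up to 0.121). Cfap53, a lumen protein needed for left-right patterning, had 5, 16 and 11 counts in LPS 7-day libraries and 17, 23 and 23 counts in LPS 1-day libraries, against 4, 7 and 3 counts in PBS libraries. It rose at 1 day by 2.20 ± 0.48 (edgeR adjusted p = 0.000157), from counts so low that the size is poorly known. Cfap20 was near level, with 39.2, 39.2 and 39.9 CPM in LPS 7-day libraries and 45.0, 42.6 and 43.9 CPM in LPS 1-day libraries, against 39.8, 44.8 and 43.8 CPM in PBS libraries. Its call at 7 days against 1 day, −0.15 ± 0.07 (edgeR adjusted p = 0.0478), was lost with DESeq2, with each other scaling and filter run, with the 2 groups alone, with a replicate block and without PBS replicate 3, any LPS 1-day or any LPS 7-day library, with an adjusted p of up to 0.131.

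At the dynein tethers and spoke bases, 4 of 8 tested genes fell at 7 days against PBS (Cfap44, Cfap206, Cfap61 and Cfap43), and 1 fell at 1 day (Cfap57). Cfap44 fell by 0.43 on the log2 scale (edgeR adjusted p = 0.000657) and Cfap206 by 0.93 (edgeR adjusted p = 0.0011) at 7 days. The call of Cfap43 was lost with DESeq2, with library-size scaling and without PBS replicate 1 or 2 or any LPS 7-day library (adjusted p of up to 0.105). That of Cfap57 at 1 day was lost without PBS replicate 2 or LPS 1-day replicate 3 (adjusted p of up to 0.192). Cfap298 and Cfap300, which help to assemble dynein arms in the cytoplasm, were not called in any comparison, and Cfap298 was at 11.1, 12.2 and 12.7 CPM in LPS 7-day libraries and 12.8, 12.2 and 10.8 CPM in LPS 1-day libraries, against 12.0, 9.87 and 12.3 CPM in PBS libraries. Cfap36, the most abundant member, was at 60.9, 57.1 and 55.1 CPM in LPS 7-day libraries and at 73.9, 80.6 and 74.7 CPM in LPS 1-day libraries, against 74.4, 79.5 and 79.1 CPM in PBS libraries. It was lower at 7 days by −0.43 ± 0.06 (edgeR adjusted p = 8.9e-09) and was not called at 1 day (−0.02 ± 0.05). Cfap97 was not called in any comparison. Cfap99, whose place in the axoneme is less known, was at 1.59, 1.85 and 1.36 CPM in LPS 7-day libraries and at 1.77, 0.810 and 1.16 CPM in LPS 1-day libraries, against 2.76, 2.21 and 3.61 CPM in PBS libraries. Its fall at 1 day was −1.22 ± 0.30 (edgeR adjusted p = 0.000675).

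Of the 4 tested tektins, Tekt4 fell at 7 days against PBS (25.0% called, against 35.6% of all genes called and 18.9% called lower). Tekt4 was at 1.35, 0.987 and 1.48 CPM in LPS 7-day libraries and at 3.16, 2.93 and 3.16 CPM in LPS 1-day libraries, against 2.59, 3.54 and 2.25 CPM in PBS libraries. Its LPS 7-day libraries were below all others, by −1.13 ± 0.27 against PBS (edgeR adjusted p = 0.000769) and −1.27 ± 0.27 against LPS 1 day (edgeR adjusted p = 8.15e-05). Tekt1 and Tekt2, whose promoters hold GTTGCC, showed −0.42 ± 0.21 and −0.55 ± 0.34 at 7 days and were not called. Tekt5 was at 14.6, 15.5 and 15.4 CPM in LPS 7-day libraries and at 12.3, 12.2 and 12.0 CPM in LPS 1-day libraries, against 13.4, 13.7 and 13.5 CPM in PBS libraries. Its 3 groups did not overlap, and it was called at 7 days against 1 day only (0.32 ± 0.10, edgeR adjusted p = 0.00754).

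Other genes of the motile axoneme were listed by role and not by the name rule. Of 49 tested, 18 fell and 2 rose at 7 days against PBS, and 15 fell and 3 rose at 1 day, with median log2 fold changes of −0.49 and −0.37. The share called was 40.8% at 7 days and 36.7% at 1 day, against 35.6% and 49.1% of all genes. Called lower were 36.7% at 7 days and 30.6% at 1 day, against 18.9% and 24.2% of all genes. The genes of this list summed to 384 to 395 CPM in LPS 7-day libraries and 386 to 392 CPM in LPS 1-day libraries, against 440 to 454 CPM in PBS libraries. Spag6l of the central apparatus, for example, averaged 5.52 CPM in LPS 7-day libraries and 5.52 CPM in LPS 1-day libraries, against 8.65 CPM in PBS libraries. It fell at both times (edgeR adjusted p = 0.000566 and 0.000516). Dnal1, an outer arm light chain, averaged 111 CPM in LPS 7-day, 131 CPM in LPS 1-day and 146 CPM in PBS libraries and was lower at 7 days by −0.39 (edgeR adjusted p = 3.74e-10). It was the largest part of the summed level of this list, which was not summed without it. Ccdc40, which sets the spacing of inner arms, fell by 0.61 on the log2 scale at 7 days (edgeR adjusted p = 0.000805). Of 13 tested factors that assemble dynein arms in the cytoplasm, 1 fell and 3 rose at 7 days, a share called of 30.8%. Spag1 was the largest riser of these, at 26.9 CPM in LPS 7-day, 11.5 CPM in LPS 1-day and 13.3 CPM in PBS libraries (1.01 against PBS, edgeR adjusted p = 5.83e-13).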

How the data were processed

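The authors deposited gene counts and FPKM for 9 libraries. Per the labels' protocols, RNA was extracted with Trizol and libraries came from a TruSeq kit. Per the submitters' processing notes TopHat2, HISAT2 and HTSeq were used on GRCm39. The sources used here name no versions, annotation or strandedness for these steps. FPKM in the deposited table equalled counts divided by gene length and library total to within 1.6e-07. Other deposited columns (lengths, positions, names) were used unchanged.

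Counts were fitted with edgeR 4.0.16 quasi-likelihood (R 4.3.3) over all 9 libraries, with TMM factors of 0.983 to 1.03, filterByExpr, 3 contrasts and Benjamini-Hochberg adjustment over 14837 genes. A gene was called when its adjusted p was under 0.05. The biological coefficient of variation was 4.15%. The SE is the log2 fold change divided by the square root of F. CPM are counts scaled by library total and TMM factor. With 3 against 3 libraries an exact permutation test cannot go below p = 0.1, so none was used. The steps were tested on simulated data.

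The members, lists and tests were chosen with earlier results of these data known. Named members are, per role, up to 4 of highest mean FPKM and up to 3 called of smallest p in a comparison, and the 5 largest rises and falls; a few others were chosen after their values were seen. Alternatives were RLE, upper-quartile and library-size scaling, DESeq2 1.42.0, other filters, 2 groups only, a replicate block, each library left out and a test against a fold of 1.5. Replicate numbers did not pair the libraries.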

Additional observations from a re-analysis of the deposited data

Results flagged for a closer look

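Dnah11 stood out because its calls against PBS had opposite signs at the 2 times, higher at 7 days and lower at 1 day. The rule for a closer look also asked for a call at 7 days against 1 day, so that call is no separate support. The difference itself, tested as the contrast of 7 days against 1 day after LPS, was a log2 fold change of 1.41 ± 0.16 (edgeR adjusted p = 7.94e-11), and every LPS 7-day library was above every LPS 1-day library. It ranged between 1.17 and 1.72 when single libraries were left out.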

How the results depend on the processing

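The counts of called members were 31 at 7 days against PBS, 25 at 1 day against PBS and 28 at 7 days against 1 day. Against a fold of 1.5 they were 6, 2 and 5, which the stricter test itself brings. All other settings run kept the counts within 1.5 times: DESeq2 gave 26, 17 and 23, and leaving out 1 library gave 27 to 31, 18 to 26 and 22 to 29. Kept in all 9 such fits were 25 of 31, 14 of 25 and 19 of 28 calls. No named member's call reversed its direction. Same-numbered libraries did not deviate together (correlations of −0.0232 to 0.027), so the numbers are only names; a replicate block gave 30, 24 and 27 called members. With library-size scaling 86.2%, 72.0% and 64.3% of calls were lower, against 87.1%, 68.0% and 71.4%. Many members had few counts, which limits what could be detected.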

Other observations

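Genes of intraflagellar transport and the BBSome, which build and supply both motile and primary cilia, were also listed by role. Of 32 tested, 7 fell and 2 rose at 7 days against PBS, 20 fell and 1 rose at 1 day against PBS, and 4 fell and 16 rose at 7 days against 1 day. The share called was 28.1% at 7 days and 65.6% at 1 day against PBS and 62.5% at 7 days against 1 day, beside 35.6%, 49.1% and 56.6% of all genes. They summed to 1457 to 1500 CPM in LPS 7-day libraries and 1406 to 1431 CPM in LPS 1-day libraries, against 1593 to 1610 CPM in PBS libraries. Of 17 genes of the primary cilium of neurons, 6 fell and 2 rose at 7 days and 8 fell and 4 rose at 1 day against PBS. Of 15 genes of thalamic and PVT neurons, 8 fell and 1 rose at 7 days and 9 fell at 1 day. Of 12 genes of homeostatic astrocytes, 8 rose and 1 fell at 7 days and 6 rose and 4 fell at 1 day. The shares called at 7 days and at 1 day were 47.1% and 70.6% for the primary cilium genes and 60.0% and 60.0% for the thalamic genes. For the astrocyte genes they were 75.0% and 83.3%, all beside 35.6% and 49.1% of all genes.

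By the file's gene ontology terms, 38 of the 70 members carried axoneme, motile cilium or sperm flagellum, 54.3% of them, against 1.08% of all 21899 genes. The other members were found by their symbol alone.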
